A study of Arabidopsis thaliana with 4 samples.

Results

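The numbered MYB genes of Arabidopsis thaliana are the genes that encode most of the plant's R2R3-MYB transcription factors, and their SMXL6-HA peaks are described here. Members were the nuclear protein-coding genes whose main symbol in a RefSeq gene table is MYB or AtMYB followed by digits, without the anthocyanin activators MYB75, MYB90, MYB113 and MYB114. The rule gave 113 genes of the 27444 nuclear protein-coding genes in the table. R2R3-MYB genes that carry another main symbol, such as RAX2, AS1, TT2 and MYBR1, are therefore not members and are described at the end.

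Binding was measured by ChIP-seq, in which DNA bound by a protein is pulled down with an antibody, here against the HA tag, and sequenced. The material was entire seedlings aged 2 weeks, grown at 21 °C with 16 h of light and 8 h of dark. One group was the smxl6/7/8 triple mutant carrying SMXL6-HA, a transgene for tagged SMXL6 under the SMXL6 promoter (2 libraries), and the other was the smxl6/7/8 mutant without the transgene (2 libraries). All plants therefore lacked the native SMXL6, SMXL7 and SMXL8 functions, and the tagged protein was present only where its own promoter is active. The authors called peaks for each pair of equal replicate number, which gave list 1 with 1789 peaks and list 2 with 1442 peaks. Each peak has a score given by the authors, which ranks peaks within a list, and read depth is unknown. The labels do not say whether replicates were separate cultures, so differences between the lists may be technical.

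R2R3-MYB proteins bind DNA through a pair of MYB repeats next to each other and differ mainly in the region that follows, by which they are sorted into numbered subgroups. Members of a subgroup often act in the same process: cuticular wax, glucosinolate or flavonol synthesis, the secondary cell wall, trichome and root hair fate, stamen growth, or responses to drought, cold and salt. SMXL6 is a repressor of strigolactone signalling that is degraded when the hormone is perceived. In seedlings several MYB genes are themselves induced by stress and hormones. Of the 113 members, 90 fell into 22 of the numbered subgroups used here and 23 into none.

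A member was counted as having an end peak if a peak reached the window from 1000 bp outside to 200 bp inside either end of the gene. In both lists this held for 7 members: MYB102, MYB74, MYB73, MYB77, MYB4, MYB7 and MYB30. They made up 6.19% of the members, and 5.04% of all nuclear protein-coding genes met the same rule, so the share lay near the background. Counted per list, with these 7 included, 21 members (18.6%) had an end peak in list 1, against 11.3% of all genes. In list 2 there were 9 members (7.96%), against 6.68% of all genes. In at least 1 of the lists 23 members (20.4%) did, against 12.9%. The 7 genes came from 4 subgroups, with a pair each from subgroups 4, 11 and 22 and MYB30 alone from subgroup 1. The background shares are descriptions, and no test was made of the difference, since the members were proposed with results of these data known.

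**Figure D1:**
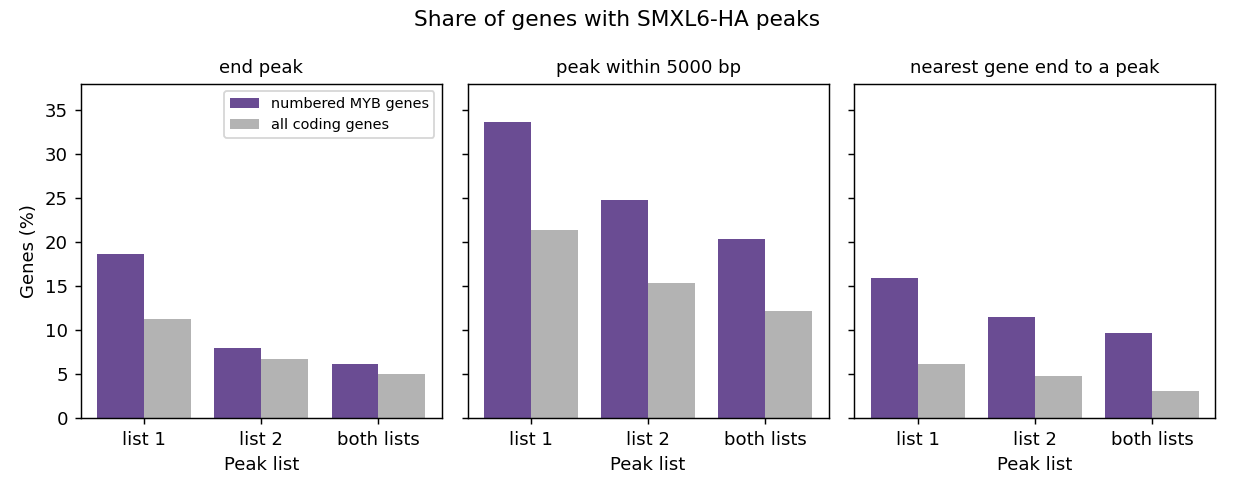
Share of genes (%) with SMXL6-HA peaks by 3 definitions (panels) in list 1, list 2 and both lists; purple bars are the 113 numbered MYB genes and grey bars all 27444 nuclear protein-coding genes. The bars for end peaks in both lists, 6.19% and 5.04%, are close, while those for the nearest gene end in both lists are 9.73% and 3.11%.

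Subgroup 11 held the highest score among the members with end peaks in both lists. MYB102, known for its response to osmotic stress and wounding, had a list 1 peak at chromosome 4, 11414061 to 11418183, that ended 16 bp below the gene and scored 461.8 (rank 53 in its list). A peak is called below a gene where its coordinates are lower than those of the gene and above it where they are higher, whatever the gene's strand. In list 2 the same stretch held a pair of peaks, 1 at 11416420 to 11417876 with a score of 236.1, which lay 323 bp below the gene, and 1 farther out at 1867 bp with a score of 229.62. No other coding gene had an end window at any of these 3 peaks.

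MYB74, a salt-responsive gene of the same subgroup, had peaks on both sides in both lists. The peak on the lower side scored 398.62 in list 1 (chromosome 4, 2616344 to 2619033) and 223.31 in list 2 (2616893 to 2618100). The peak on the upper side scored 55.44 in list 1 (2619870 to 2621269) and 160.69 in list 2 (2620096 to 2620990). The lower peak thus ranked above the upper one in each list, and list 1 peaks covered 42.0% and 4.9% of the gene while the list 2 peaks lay outside it. The other members of subgroup 11, MYB41, a regulator of suberin synthesis, and MYB49, had none within 5000 bp.

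In subgroup 22, whose genes respond to abscisic acid, auxin and salt, all 3 members had an end peak in list 1 and MYB73 and MYB77 also in list 2. MYB73 was wholly covered in both lists. Its list 1 peak spanned chromosome 4, 17536343 to 17542803, with a score of 330.07, and its list 2 peak spanned 17539174 to 17542583 with a score of 164.87. The same peaks also reached an end window of HMA1, which encodes a metal-transporting ATPase of the chloroplast, but in both lists the closest gene end to the peak was that of MYB73. A further list 2 peak 1999 bp below MYB73 scored 164.82, and both lists had a peak 4466 bp and 4685 bp below it, with scores of 243.79 and 195.74, which lay nearest to AT4G37250.

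MYB77, which takes part in auxin-dependent lateral root growth, had 1 peak per list over its upper end. The peaks covered 83.8% and 74.7% of the gene, at chromosome 3, 18557886 to 18560118 (score 98.82) and 18558043 to 18559800 (score 90.0). Both scores were below 100 and both peaks also touched an end window of AT3G50050. MYB70 differed from the other two: it had a pair of list 1 peaks, with scores of 58.86 over the whole gene and 110.38 above it, and its nearest list 2 peak was 37298 bp away. The fourth gene of this subgroup, MYB44, has the main symbol MYBR1 and had an end peak in list 2 alone (score 114.91).

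Subgroup 4 holds repressors of phenylpropanoid genes, which carry an EAR motif, the short motif by which plant repressors recruit TOPLESS corepressors. MYB4, which holds back the synthesis of ultraviolet-absorbing sinapate esters, had a peak at each end in each list. Over the lower end the scores were 79.24 in list 1 (chromosome 4, 18052387 to 18054504) and 79.05 in list 2 (18053266 to 18054275). At the upper side they were 138.16 (18054910 to 18057523) and 67.82 (18055270 to 18057073), but RPN10, which encodes a proteasome subunit, had the nearest gene end to that peak in both lists. The peak for which MYB4 itself was nearest therefore scored below the median of each list, 92.0 in list 1 and 89.2 in list 2.

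MYB7, a close relative of MYB4, was covered along its whole length in both lists. In list 1 the peak lay at chromosome 2, 7255226 to 7257354, with a score of 58.78 (rank 1513), and in list 2 at 7255450 to 7257131, with a score of 67.19 (rank 1053). These are low ranks in both lists, although the intervals had the same midpoint relative to the gene, 817 bp inside its lower end. MYB32, which acts in lignin synthesis and pollen, had an end peak in list 1 alone, at 352 bp on the lower side (score 75.14), and SLP2 had the nearest gene end to it. A further list 1 peak 2449 bp below MYB32 scored 373.78 (rank 85) and was also nearest to SLP2. It overlapped a list 2 peak, and the nearest list 2 peak to MYB32 lay at 5340 bp. MYB3 and MYB6 had no peak within 5000 bp.

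MYB30 was the only member of subgroup 1 with an end peak in both lists. It promotes the synthesis of very-long-chain fatty acids during pathogen-induced cell death and takes part in brassinosteroid responses. Its list 1 peak (chromosome 3, 10910199 to 10913314, score 61.53) covered the whole gene, and its list 2 peak (10910442 to 10911705, score 102.21) covered 27.9% of it at the lower end. MYB96, a wax activator that responds to drought, had a list 1 peak 82 bp below it with a score of 67.77, whose nearest gene end belonged to AT5G62460, and no list 2 peak within 5000 bp. MYB31 had 1 list 1 peak at 4222 bp with a score of 66.49. MYB94, another wax activator, and MYB60, a guard cell regulator, had none within 5000 bp.

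Across the 7 genes, all 9 list 1 and all 9 list 2 end peaks overlapped a peak of the other list. The rule makes such overlap likely at any gene. Of the 1384 protein-coding genes with an end peak in both lists, 1355 had end peaks that overlapped between the lists. The best score was higher in list 1 for 5 of the 7 members and higher in list 2 for 2, MYB7 and MYB30. Scores rank peaks within a list only, so this does not compare binding between the lists. In list 1 the median of the best scores was 138, against 124 over the 1384 protein-coding genes with an end peak in both lists, and in list 2 it was 102 against 112. The list 1 median is the score of the upper peak at MYB4, to which RPN10 was nearest. Only MYB102, MYB74 and MYB73 had scores of at least 100 in both lists. Signal in entire seedlings does not separate a site bound weakly in many cells from one bound in few cells; these cannot be told apart here.

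**Figure D2:**
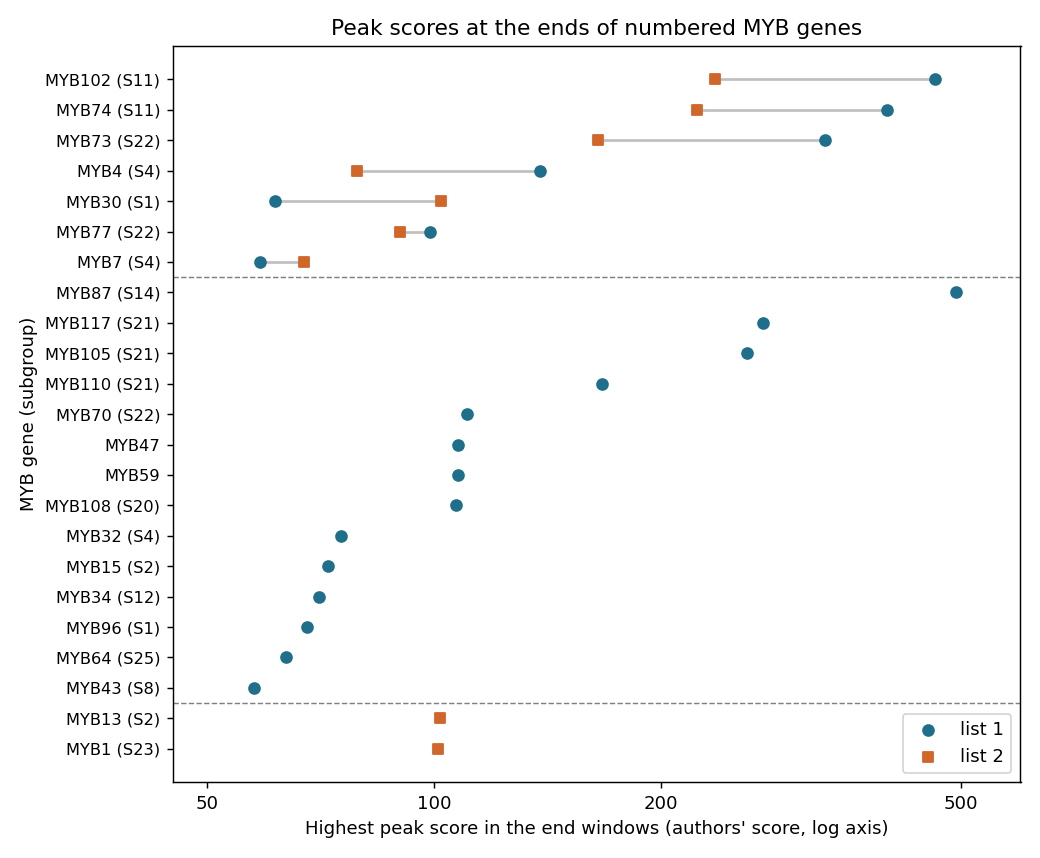
Highest score of a peak in the end windows (x axis, authors' score, log scale) for each of the 23 members with an end peak (y axis, S marks the subgroup); circles are list 1, squares list 2, and dashed lines separate genes with end peaks in both lists, list 1 alone and list 2 alone. MYB102, MYB74 and MYB73 lie above 100 in both lists, while MYB7 lies below 70 in both.

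End peaks in list 1 alone were found at 14 members, since 21 had one in list 1 and 7 in both lists. Over all 27444 nuclear protein-coding genes, 3089 had one in list 1 and 1384 in both lists. As shares, 18.6% of members and 11.3% of all genes had one in list 1, and 6.19% and 5.04% in both lists. The 14 members fell into 2 kinds. The same split was not made over all genes, so its counts and scores describe these members only. At 6 of them, MYB105, MYB110, MYB117, MYB59, MYB64 and MYB87, the list 1 peak overlapped a list 2 peak whose edge lay outside the window, at 1002 bp to 1012 bp for MYB64, MYB59 and MYB117 and at 1462 bp to 3806 bp for the others. List 1 peaks were wider, with a median of 2824 bp against 1236 bp over the whole lists. MYB87, a relative of the axillary meristem regulator RAX2, had the highest list 1 score of the 6. Its list 1 peak (chromosome 4, 17760667 to 17763285) scored 492.08 and began 921 bp above the gene, and the overlapping list 2 peak (17761208 to 17763071) scored 286.59 and began 1462 bp above it. MYB87 was the nearest gene in each list, and 492.08 was the highest score of any end peak at a member.

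MYB117 (LOF1) and MYB105 (LOF2), which act together in separating lateral organs from the stem, also had high scores. At MYB117 they were 273.41 in list 1, at 919 bp, and 304.86 in list 2, at 1012 bp. At MYB105 the list 1 peak was 7088 bp wide, reached into the gene and scored 259.87, while the list 2 peak lay 3806 bp above with a score of 413.79. For neither gene was the peak nearest: AT1G26790 lay closer at the first locus and AT1G69570 at the second. MYB110, of the same subgroup 21, had scores of 167.11 at 930 bp and 88.27 at 1679 bp, with the expansin gene EXPA5 closer.

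MYB59, a regulator of root growth and of nitrate and potassium transport, had a peak 671 bp above it in list 1 (score 107.45) that overlapped a list 2 peak at 1010 bp (score 127.37). It also had a list 1 peak 455 bp below it with a score of 69.3, nearest to AT5G59770. MYB64, which acts in the female gametophyte, had scores of 63.62 at 712 bp in list 1 and 84.46 at 1002 bp in list 2. Both genes had the nearest end to these overlapping peaks. With windows of 2000 bp, 5 of the 6 had end peaks in both lists, all but MYB105. In list 1 the outermost edges inside the limit of 1000 bp were those of MYB117, MYB87 and MYB110, and in list 2 the first edges outside it were those of MYB64, MYB59 and MYB117.

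At the other 8 members with an end peak in list 1 alone, no list 2 peak overlapped it. These were MYB108 (106.93), MYB15 (72.2), MYB32, MYB34 (70.4), MYB43 (57.59), MYB47 (107.61), MYB70 and MYB96, each value in parentheses being the best end score. Their best scores ranged from 57.59 to 110.38 with a median of 73.7, against a range of 63.62 to 492.08 and a median of 213 for the 6 described above. MYB15 is a cold and immunity regulator, MYB34 an activator of indole glucosinolate synthesis and MYB43 a regulator of the secondary wall. The peak at MYB34 covered the whole gene and that at MYB15 covered 85.0% of it. End peaks in list 2 alone were found at MYB13 (score 101.76, 409 bp below the gene) and MYB1 (score 101.17, over its lower end), and the nearest list 1 peaks were 7720 bp and 208140 bp away. Of all nuclear protein-coding genes, 1834 had an end peak in list 2 and 1384 in both lists, beside 9 and 7 members.

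Within 5000 bp, 23 members had peaks in both lists, 20.4% of the members, against 12.2% of all nuclear protein-coding genes. List 1 had peaks there for 38 members (33.6%, against 21.4%), list 2 for 28 (24.8%, against 15.4%), and at least 1 list for 43 (38.1%, against 24.7%). Members were the nearest gene to a peak in both lists in 11 cases (9.73%), against 3.11% of all genes. In list 1 this held for 18 members (15.9%, against 6.19%) and in list 2 for 13 (11.5%, against 4.84%). The 11 were the 7 genes with end peaks in both lists together with MYB87, MYB59, MYB64 and MYB21. The median of the mean distance to the neighbouring coding genes was 3225.5 bp for members and 1438.5 bp for all genes. Among genes with a gap above the median of all genes, 22 of 100 members and 1833 of 13721 genes (13.4%) had peaks within 5000 bp in both lists. In the same set 11 members and 643 genes (4.69%) were nearest in both lists, and 7 members and 803 genes (5.85%) had end peaks in both lists. This split was chosen after the data were seen, and the part of the gap in these shares was not tested further.

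MYB21, MYB24 and MYB57 drive stamen filament growth downstream of jasmonate, and MYB21 and MYB24 had peaks within 5000 bp in both lists. At MYB21 the peaks lay 1153 bp below the gene in list 1 (chromosome 3, 10303431 to 10304696, score 57.39) and 1315 bp below it in list 2 (10303706 to 10304534, score 84.93), and MYB21 was the nearest gene. At MYB24 they lay 2673 bp and 2813 bp below it, with scores of 55.63 and 172.05, and AT5G40340 was nearer. The same peaks lay 4706 bp and 4957 bp above MYB23, a trichome regulator, so MYB23 and MYB24 share 1 site. MYB57 had no peak within 5000 bp.

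Other members reached both lists only through peaks nearer to a neighbour. The highest scores were near MYB108, which limits cell death after Botrytis infection and acts in stamen maturation. They were 971.14 (rank 4 of list 1) and 1908.17 (rank 3 of list 2), 4070 bp and 4277 bp above the gene, but these peaks lay at the invertase gene A/N-InvC. MYB88, which limits divisions in the stomatal lineage, had scores of 386.06 and 501.21 at 3342 bp and 3408 bp, at the kinase gene APK2B. MYB25 had 158.9 and 233.35, and MYB69, a secondary wall regulator, 101.44 and 105.71. MYB67 (59.11 and 71.82) and MYB17 (61.31 and 62.98) had scores below the median of each list, and MYB95 (73.37 and 97.0) in list 1 alone. None of these peaks had the member as its nearest gene.

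**Figure D3:**
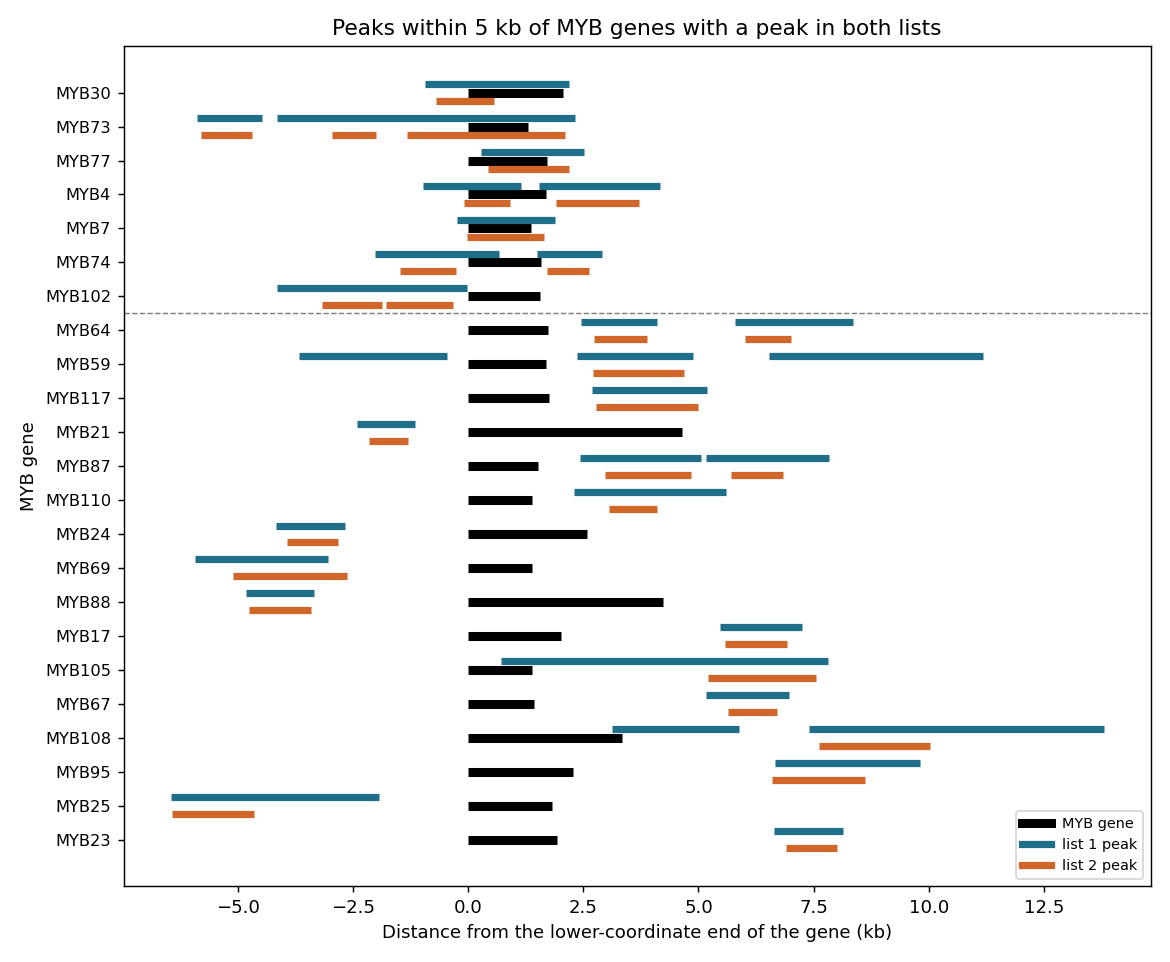
Peaks within 5 kb of the 23 members with peaks in both lists, drawn to scale against the distance (kb) from the lower-coordinate end of each gene (black bar); blue bars are list 1 peaks and orange bars list 2 peaks, and the dashed line separates the 7 genes with end peaks in both lists (top). Peaks cover the gene at MYB7 and MYB73 in both lists, and below the line most lie to one side.

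By position, the peak overlapped the gene in 26.9% of 52 pairs of a member and a list 1 peak within 5000 bp, against 34.6% of the pairs of all genes. In list 2 this was 17.1% of 35 pairs, against 25.9%. The peak lay 1 to 1000 bp outside the gene in 11 of the 52 member pairs and 844 of 7017 pairs of all genes in list 1, and in 14.3% and 13.8% of pairs in list 2. The median gene length was 1789 bp for members and 2078 bp for all genes, and its part in these shares was not tested. Of the 25 list 1 peaks in end windows of members, 60.0% overlapped a list 2 peak, against 55.2% of the list 1 peaks in end windows of any gene. In list 2 this was 81.8% of 11 peaks against 74.4%.

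**Figure D4:**
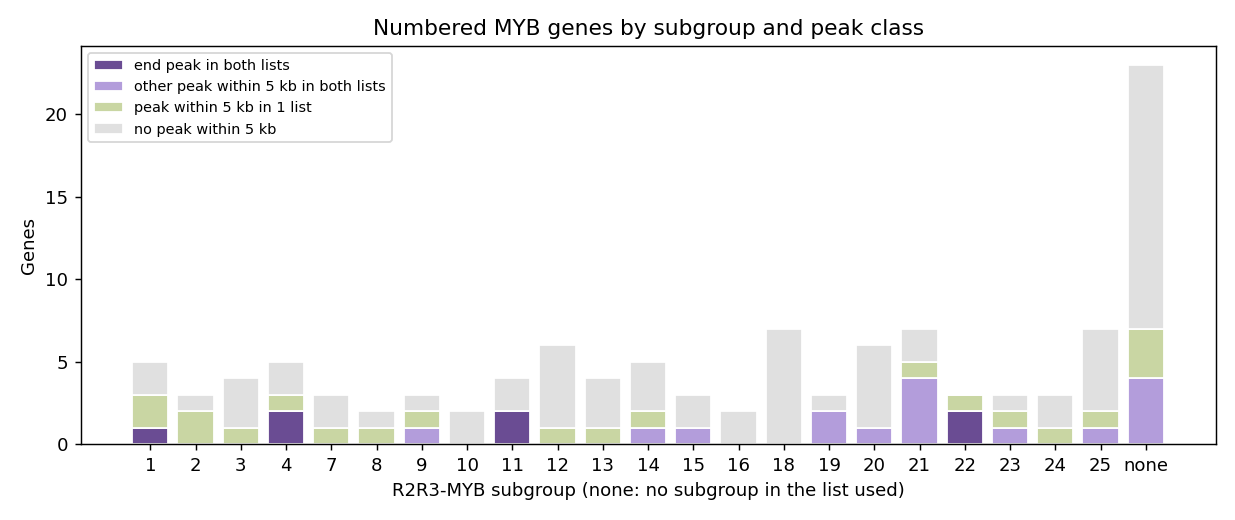
Number of members (y axis) in each R2R3-MYB subgroup (x axis), stacked by peak class: end peak in both lists, another peak within 5 kb in both lists, a peak within 5 kb in 1 list, and none. Only subgroups 1, 4, 11 and 22 hold a gene of the first class, and no member of subgroups 10, 16 and 18 had a peak within 5 kb.

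By subgroup, 12 of the 22 had a member with peaks within 5000 bp in both lists. Counted per gene, such peaks were found for 20.4% of members and 12.2% of all genes. A subgroup counts if any of its genes does, so these shares are no background for the count of subgroups. Subgroup 21, with regulators of organ boundaries and the secondary wall, had the most members of this kind, 4 of 7: MYB105, MYB110, MYB117 and MYB69. At each of them another gene's end was nearer to the peak in both lists, and no member of subgroup 21 had an end peak in both lists. In 3 subgroups no member had a peak within 5000 bp. They were subgroup 18 with 7 genes, the GAMYB-like factors of anther and seed development that include MYB33 and MYB65, subgroup 10 with MYB9 and MYB107, which act in suberin, and subgroup 16 with MYB19 and MYB45. In subgroup 12, the glucosinolate activators, 1 of 6 members had an end peak in list 1 (MYB34) and none in list 2. The flavonol activators of subgroup 7 had no end peak, and MYB12 alone had peaks within 5000 bp, in list 1 (80.34 and 53.24). The former overlapped a list 2 peak that lay beyond 5000 bp from MYB12. At least 1 list had a peak within 5000 bp for 24.7% of all genes and 38.1% of members, so most genes of either set had none. In all, 70 of the 113 members lacked any peak within 5000 bp. Because depth is unknown, these genes may be bound below what the libraries could detect.

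Related genes were counted by the same rule, which 5.04% of all genes met in both lists and 12.9% in at least 1. Of 8 R2R3-MYB genes with another main symbol 0 had an end peak in both lists. In list 1 alone RAX2, a regulator of axillary meristems, had a score of 104.03 and AS1, a regulator of leaf polarity, 56.66. A list 2 peak with a score of 161.86 lay within 5000 bp of RAX2 but outside its windows. Of 5 MYB3R genes, which regulate the cell cycle through proteins with an added MYB repeat, MYB3R2 had end peaks in both lists (56.11 and 157.37). Of 16 single-repeat MYB-related genes 5 did: the clock genes LHY (184.26 and 168.61) and CCA1 (63.5 and 213.13), RVE1 (129.2 and 115.83), EPR1, also called RVE7 (53.67 and 56.56), and AT5G47390, also called KUA1 (50.45 and 87.08). Among the related MYB genes with end peaks in both lists, only LHY and RVE1 had the nearest gene end to a peak in both lists. Of 7 bHLH genes whose proteins partner with MYB factors 0 had an end peak in either list.

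Structural genes of pathways under the control of MYB factors were counted against the same 5.04% of all genes, with no test of the difference. End peaks in both lists were found at 1 of 14 wax genes, the elongase gene KCS6 (196.01 and 179.04), and at 1 of 12 suberin genes, KCS20 (52.08 and 80.6). They were found at 1 of 10 aliphatic glucosinolate genes, the aminotransferase gene BCAT3 (184.41 and 197.61), and at 1 of 17 lignin and secondary wall genes, the alcohol dehydrogenase gene CAD5 (125.62 and 177.66). Of these genes only KCS20 had the nearest gene end to a peak in both lists. Among the lignin and secondary wall genes, the cellulose synthase gene IRX1 had an end peak in list 1 alone. This peak scored 572.13, and RABA1d had the nearest gene end to it. A list 2 peak with a score of 969.62 lay within 5000 bp of IRX1 but outside its windows. Of 7 indole glucosinolate genes and 8 flavonol genes 0 had end peaks in both lists. BCAT3 is a neighbour of MYB84, and its list 1 peak is also the peak 4322 bp below MYB84.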

How the data were processed

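The submitters' processing notes name MACS 1.4.2, SAMtools and BWA 0.7.10-r789, and TAIR10 as the genome build; the sources used here give no parameters, depth or handling of duplicates. The deposited score of each peak was taken as a log-scaled p-value from peak calling, since all but 1 score reached 50; the files do not state it. Peaks were called per replicate pair by the authors. Coordinates are TAIR10, counted from 1.

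Genes came from a RefSeq table of TAIR10.1 without strand, exons or sequence. As a check of the match, 39.8% of list 2 midpoints lay inside genes, against 64.9% and 63.1% when moved by -10000 bp and 10000 bp. The 1000 bp and 5000 bp rules were applied to gene ends with Python 3.11.15 and tested on simulated peaks. Nearest means the coding gene end closest to a peak midpoint. The planned start-of-gene windows and promoter motifs need strand or sequence and were not run.

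Members and lists were chosen with earlier results of these data known. Subgroups and related lists were written from textbook knowledge; of 113 symbols and aliases in the related lists 3 were ambiguous and 9 matched no gene. All members with an end peak in either list, with peaks within 5000 bp in both, or in a subgroup with an end peak in both lists were named. Alternatives were scores of at least 100, other windows, overlap of 50%, trimmed list 1 peaks, nearest gene, synonyms and each list alone.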

Additional observations from a re-analysis of the deposited data

How the results depend on the processing

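The count of 7 members with end peaks in both lists stayed within 1.5 times under 6 of its alternatives. Among these, windows of 500 bp gave 7 (6.19%, against 4.2% of all genes). Overlap of the peaks by 50% gave 5, without MYB102 and MYB30 (4.42% against 2.41%). Trimming list 1 peaks to the median width of list 2 gave 6, without MYB102 (5.31% against 4.16%). With scores of at least 100 the count was 3 (2.65%, against 2.16% of all genes). Windows of 2000 bp gave 13 (11.5% against 6.88%) and the nearest gene end gave 11 (9.73% against 3.11%). Single lists gave 9 to 21. The list 1 count of 21 fell to 12 with scores of at least 100 (10.6% against 5.34%), and the list 2 count of 9 rose to 15 with windows of 2000 bp (13.3% against 8.94%). The 23 members with peaks within 5000 bp in both lists became 12 with scores of at least 100 (10.6% against 5.33%), 13 within 2000 bp (11.5% against 6.97%) and 39 within 10000 bp (34.5% against 20.5%), and 28 to 38 in single lists. The 11 members nearest to a peak became 5 with scores of at least 100 (4.42% against 1.35%) and 13 to 18 in single lists. With overlap of 50% of both peaks the share of overlapped end peaks fell from 60.0% to 36.0% in list 1 and from 81.8% to 45.5% in list 2. Beyond what each alternative removes or adds, the cause was not tested. Windows at gene starts alone were not run, since strand was not used here. No paired analysis was possible because peaks are called within pairs and the result comes from no test. Several calls changed with the window limits. Trimming list 1 peaks removed only MYB102 from the 7 and took the list 1 count of 21 to 14 (12.4% against 7.8%). Read depth is unknown.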

Other observations

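Members with peaks within 5000 bp in only 1 list and outside the end windows had scores below the median of their list in 7 of 11 cases. In list 1 these were MYB26 (52.93), MYB92 (54.71), MYB55 (56.04), MYB31 and MYB12, and in list 2 MYB10 (57.6) and MYB16 (59.54). The others were a list 2 peak near MYB52 (101.9) and list 1 peaks near MYB84 (184.41), MYB99 (350.29) and MYB98 (572.13). Each of these 3 list 1 peaks overlapped a list 2 peak that lay beyond 5000 bp from the MYB gene, at 5822 bp, 7177 bp and 7746 bp. The list 1 peak near MYB12 that scored 80.34 also overlapped a list 2 peak, and the nearest list 2 peak to MYB12 lay at 5273 bp. The peak near MYB98, a regulator of pollen tube guidance, lay at 4 other coding genes, among them RABA1d and the cellulose synthase gene IRX1. The peak near MYB99 lay at 4 coding genes, and MYB55 was the only 1 of these 11 members with the nearest gene end to its peak.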
